A study of Mus musculus with 8 samples.

Results

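The keratin genes comprised every row of the deposited table of read counts whose Entrez identifier carries a mouse symbol of Krt followed by a number. Of the 27179 rows, 25275 had a symbol in the RefSeq annotation and 54 met this rule. After 1 row annotated as a pseudogene was left out, 53 keratin genes remained, 28 of type I and 25 of type II. Keratin-associated protein genes (Krtap) were not included. The counts came from whole orthotopic tumours that grew after 100000 cells of the murine mammary carcinoma line 4T1.13 were placed in the mammary fat pad of female BALB/c mice, and the labels give recovery on day 14. The age of the mice is not in the labels, and the study's methods give an earlier day than the labels. They describe the miR-21-KD tumours as starting to regress at recovery, so that growth state and knockdown go together in these groups. In the miR-21-KD group (4 tumours) the cells carried the miArrest lentiviral vector, in which the H1 promoter drives an RNA that sequesters mature miR-21. In the VC (vector control) group (4 tumours) the cells carried the same backbone with a scrambled RNA. Cells of both groups also carried the mCherry reporter and hygromycin resistance, and each line was a pool of single-cell clones, so that differences between the clone pools cannot be told apart from the knockdown. Totals ran from 12134849 to 13592695 gene-assigned reads in VC tumours and from 12550898 to 12783800 in miR-21-KD tumours. At this depth, finding no read allows a level of at most 3 counts, or 0.221 to 0.245 CPM (counts scaled to the library size), which covers counting error only. Mature miR-21 was not measured by these counts and its precursor gene had 0 counts over all tumours, so the knockdown could not be checked here.

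Keratins are the intermediate filament proteins of epithelial cells, and a filament forms only when a type I keratin pairs with a type II keratin. Simple (luminal) epithelium uses Krt8 with Krt18 and often Krt7 with Krt19, the basal layer of stratified and mammary epithelium uses Krt5 with Krt14, and stratified squamous epithelium adds other pairs as its cells mature, such as Krt1 with Krt10, Krt4 with Krt13, or, under stress and in wounds, Krt6a with Krt16. Hair follicles have a large set of their own. In the mammary gland, luminal cells are recognised by Krt8, Krt18 and Krt19, and myoepithelial and other basal cells by Krt5, Krt14 and Krt17. On this basis 6 of the genes were classed as luminal, 4 as basal, 16 as squamous, 23 as hair and inner root sheath, and 4 were left unclassed.

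The genes lay in 2 clusters (RefSeq, build GRCm38.p6, which has the coordinates of the mm10 build named in the submitters' processing notes). On chromosome 11, between bases 99232761 and 100269951, were 27 type I genes. On chromosome 15, between bases 101348315 and 102032026, were the 25 type II genes together with Krt18, the only type I gene there, which neighbours Krt8. RefSeq promoter windows of 300 bases (250 before to 50 after the annotated start) were at hand for 36 of the 53 genes, 37 windows in all. Those of Krt8 and Krt18, the most abundant pair, and of Krt7 and Krt5, which had higher counts in miR-21-KD tumours, are shown, each on its own strand, with capitals marking, on either strand, the TATA box letters TATAAA, the GC box letters GGGCGG or the AP-2 letters GCCNNNGGC.
Krt8 (chr15:102004293-102004592, minus strand): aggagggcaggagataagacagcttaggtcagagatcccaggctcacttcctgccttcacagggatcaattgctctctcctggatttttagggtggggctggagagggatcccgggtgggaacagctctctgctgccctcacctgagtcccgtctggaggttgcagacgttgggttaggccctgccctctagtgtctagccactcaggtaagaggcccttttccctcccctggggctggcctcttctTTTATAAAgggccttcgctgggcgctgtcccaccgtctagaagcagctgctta
Krt18 (chr15:102027966-102028265, plus strand): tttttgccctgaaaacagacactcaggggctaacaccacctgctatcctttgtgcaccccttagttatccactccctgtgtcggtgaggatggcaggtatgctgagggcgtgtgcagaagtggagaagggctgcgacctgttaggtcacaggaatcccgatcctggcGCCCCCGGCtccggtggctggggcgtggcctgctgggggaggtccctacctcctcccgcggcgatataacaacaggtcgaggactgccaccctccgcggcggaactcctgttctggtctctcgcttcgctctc
Krt7 (chr15:101412153-101412452, plus strand): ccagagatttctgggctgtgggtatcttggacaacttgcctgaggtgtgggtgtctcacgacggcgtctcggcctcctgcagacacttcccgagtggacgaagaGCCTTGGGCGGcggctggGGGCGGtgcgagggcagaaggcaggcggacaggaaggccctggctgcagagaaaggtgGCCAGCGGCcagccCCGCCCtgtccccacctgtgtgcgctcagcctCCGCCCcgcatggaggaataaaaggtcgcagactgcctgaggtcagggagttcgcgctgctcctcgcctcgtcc
Krt5 (chr15:101712856-101713155, minus strand): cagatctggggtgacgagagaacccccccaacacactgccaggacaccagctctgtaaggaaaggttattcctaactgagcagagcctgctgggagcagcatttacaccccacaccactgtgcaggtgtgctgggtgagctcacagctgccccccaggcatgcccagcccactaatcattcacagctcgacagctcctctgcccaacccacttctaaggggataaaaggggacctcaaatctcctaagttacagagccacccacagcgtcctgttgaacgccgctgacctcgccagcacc
The letters differed among these genes. The Krt8 window held TATAAA overlapping its own reverse complement at the annotated start, the Krt18 window held 1 AP-2 match, the Krt7 window held 4 GC box and 2 AP-2 matches, some of them overlapping, and the Krt5 window held none of the 6 motifs searched. TATAAA occurred in 19 of the 37 keratin windows, against 13.6% of the 32851 windows of all genes. The GC box occurred in 2 of 37 (35.7% of all), AP-2 in 7 (16.6%), CCAAT in 15 (37.4%), the AP-1 motif TGANTCA in 2 (7.81%) and the grainyhead motif AACNGGTT in 0 (2.09%). These matches are descriptions of the letters and not of bound sites.

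The sequence of the targeted miRNA is shown with its seed, bases 2 to 8, in capitals.
mmu-miR-21a-5p (22 bases): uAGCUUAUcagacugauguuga
The match to this seed, ATAAGCT, occurred in the annotated 3' UTR of 0 of the 53 keratin genes, against 1544 of 20631 genes of the table (7.48%). The longest annotated 3' UTR of a keratin ran from 3 bases (Krt40) to 2651 bases (Krt7 and Krt80). The shares were not matched for UTR length, and only this match was searched.

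Keratin transcripts were present in all tumours, but most of the genes were silent or nearly so. No reads at all were counted for 12 of the 53 genes, 41 had at least 1, and 16 passed the filter on low counts and could be tested. The tested genes were all 6 luminal, all 4 basal and 6 of the 16 squamous keratins. In miR-21-KD tumours 7 of the 16 were higher and 2 were lower by the edgeR quasi-likelihood test (adjusted p under 0.05), and 7 did not pass. Of all 14382 genes tested, 19.6% were higher and 19.5% lower by the same rule. A gene that passed the filter only through the group in which it is high had to differ, so the 16 are not a sample of all keratins. This applies to Krt78 and Krt6a, which reached 10 counts in 0 and 1 of the 4 VC tumours and in all 4 miR-21-KD tumours, and their adjusted p-values are given as descriptions. The groups did not overlap for 6 of the 16, with the miR-21-KD tumours above for 5 and below for 1, against 16.3% and 18.9% of all tested genes. On the log2 scale the median change was 0.51 over the 16 genes, 0.22 over the luminal, 2.85 over the basal and 0.40 over the squamous ones, against -0.01 for the whole set of tested genes. In bulk tumours a smaller share of cells of a type and less RNA per cell cannot be told apart.

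**Figure D1:**
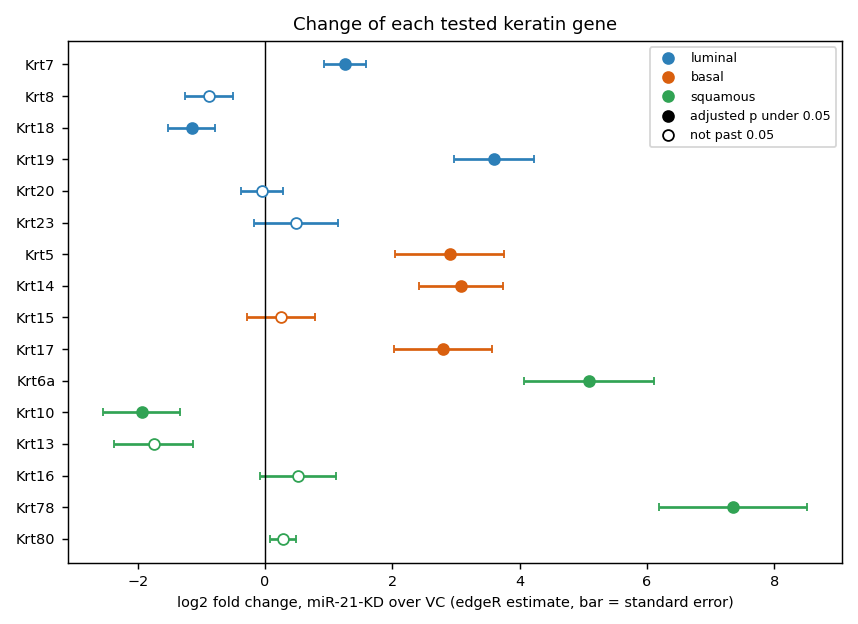
Change of each of the 16 tested keratin genes, as the edgeR log2 fold change of miR-21-KD over VC (x axis) with its standard error (bar). Colours give the class and filled points passed an adjusted p of 0.05. The points run from -1.94 (Krt10) to 7.36 (Krt78), and 3 of the 4 basal keratins lie between 2.79 and 3.08.

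The luminal keratins moved in opposite directions. Krt18 was lower in miR-21-KD tumours, whereas Krt19 and Krt7 were higher. Per kilobase of exon, the mean level of Krt18 was 712 CPM in VC against 320.0 CPM in miR-21-KD tumours, and that of Krt8 was 413 and 224 CPM, above Krt19 (13.7 and 167 CPM) and Krt7 (8.85 and 21.1 CPM).

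Krt8, the type II partner in simple epithelia, had 808, 921, 939 and 565 CPM in VC tumours 1 to 4 and 173, 643, 573 and 366 CPM in miR-21-KD tumours 1 to 4. Krt18, its type I partner, had 1032, 1212, 1169 and 677 CPM in VC against 188, 689, 563 and 399 CPM in miR-21-KD tumours. For both genes VC 4 was the lowest control and overlapped with the knockdown tumours, of which miR-21-KD 1 was the lowest and miR-21-KD 2 the highest. Krt18 fell by 1.15 on the log2 scale (standard error, SE, 0.37, edgeR adjusted p = 0.0374), from 1022 ± 243 to 460 ± 216 CPM (SD, n = 4 each). Krt8 was at 808 ± 173 and 439 ± 213 CPM (SD, n = 4 each), and its log2 fold change of -0.88 (SE 0.37) did not pass (adjusted p = 0.0870 from edgeR). With the replicate number as a block, Krt8 passed as well (adjusted p = 0.0413 from edgeR), as it did without miR-21-KD 2 (adjusted p = 0.0435 from edgeR), with DESeq2 (adjusted p = 0.0405) and with limma-voom quality weights (adjusted p = 0.0207). The call of Krt18 was lost without a filter on low counts (adjusted p = 0.0501 from edgeR) and when VC 1, VC 2, VC 3, miR-21-KD 3 or miR-21-KD 4 was left out (adjusted p between 0.0594 and 0.0939 from edgeR). Of the 50-base windows of the Krt8 transcripts, 26.9% also occur in the pseudogene Krt8-ps, and how reads shared by both were counted is not given in the sources used here. Annotated genes also overlap Krt8 (Gm36026), Krt5 (Gm44323), Krt6a (Gm44342 and Gm49428), Krt10 (Gm11940) and Krt80 (Gm35853 and Mir1941), and whether strand was used in counting is not given either.

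Krt19, the smallest keratin, which lacks most of the tail domain, had 45.8, 9.57, 20.6 and 10.5 CPM in VC against 184, 104, 405 and 358 CPM in miR-21-KD tumours. Every knockdown tumour was above every control, with miR-21-KD 3 and 4 the highest. The mean rose from 21.6 ± 16.9 to 263 ± 142 CPM (SD, n = 4 each), which is 12.2-fold, with a log2 fold change of 3.60 (SE 0.63, edgeR adjusted p = 0.00688). Krt7, the type II keratin of glandular ducts, had 43.1, 36.3, 47.7 and 17.8 CPM in VC against 52.7, 80.2, 118 and 95.6 CPM in miR-21-KD tumours. These groups did not overlap either, although miR-21-KD 1 was close to VC 3. The mean was 2.39-fold higher, with a log2 fold change of 1.26 (SE 0.33, edgeR adjusted p = 0.0188), and the call was lost without miR-21-KD 3 (adjusted p = 0.0504 from edgeR) or miR-21-KD 4 (adjusted p = 0.0509 from edgeR). The remaining luminal keratins were near the limit of the filter. Krt20, a keratin of intestinal and urothelial cells, was between 1.39 and 3.24 CPM in VC against between 1.41 and 2.42 CPM in miR-21-KD tumours, with a log2 fold change of -0.04 (SE 0.33). Krt23 was between 0.399 and 1.84 CPM in VC against between 0.236 and 3.31 CPM in miR-21-KD tumours, with a log2 fold change of 0.49 (SE 0.66). Neither passed the test (adjusted p = 0.926 and 0.580 from edgeR).

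**Figure D2:**
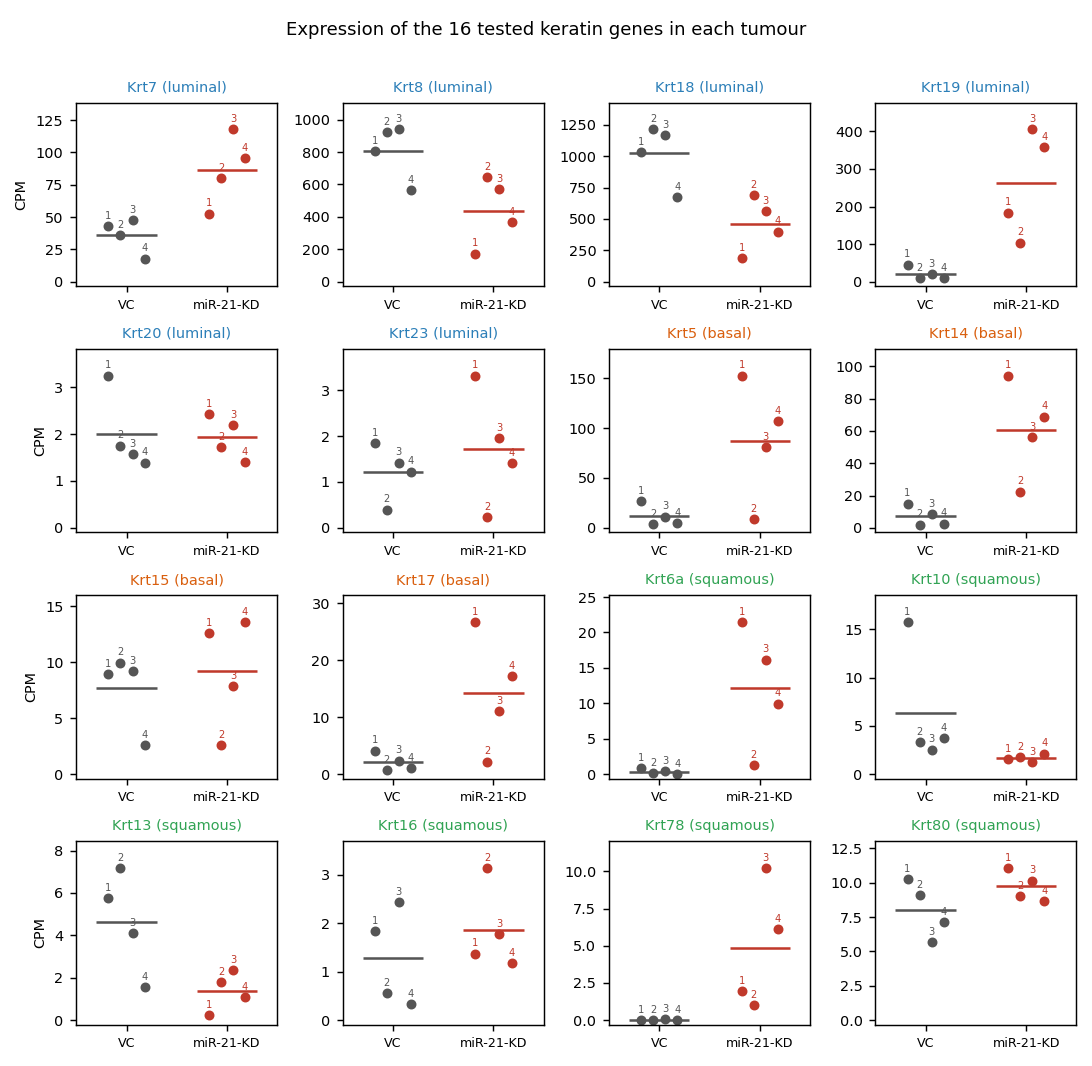
Level of the 16 tested keratin genes in each tumour, in CPM on linear axes that differ between panels. Numbers are the tumours of each group, VC in grey and miR-21-KD in red, and horizontal lines are group means. In the knockdown group, tumour 2 was the lowest for Krt19, Krt5, Krt14, Krt17, Krt6a and Krt78, and tumour 1 the lowest for Krt8 and Krt18.

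Of the 4 basal keratins, Krt5, Krt14 and Krt17 rose in miR-21-KD tumours and Krt15 did not pass the test. Krt5, the type II keratin of basal cells, had 26.6, 3.67, 11.2 and 4.99 CPM in VC against 153, 9.04, 81.0 and 107 CPM in miR-21-KD tumours. Tumour miR-21-KD 2 lay below VC 1 and VC 3, and the other knockdown tumours exceeded all controls. Krt5 rose by 2.90 on the log2 scale (SE 0.85, edgeR adjusted p = 0.0284), from 11.6 ± 10.5 to 87.3 ± 60.0 CPM (SD, n = 4 each). The call was lost when any tumour except VC 1 and miR-21-KD 2 was left out (adjusted p between 0.0549 and 0.0739 from edgeR), without a filter on low counts (adjusted p = 0.0565 from edgeR) and with limma-voom (adjusted p = 0.0905).

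Krt14, the type I partner of Krt5, had 15.04, 2.07, 8.59 and 2.70 CPM in VC against 94.2, 22.5, 55.9 and 68.9 CPM in miR-21-KD tumours. Here all knockdown tumours were above all controls, miR-21-KD 2 included. The mean rose from 7.10 ± 6.05 to 60.4 ± 29.8 CPM (SD, n = 4 each), with a log2 fold change of 3.08 (SE 0.66, edgeR adjusted p = 0.0110). Of the 50-base windows of Krt14, 14.4% also occur in other genes, mostly Krt16, so that its reads and its ratio to Krt5 carry that uncertainty. Krt17, a type I keratin of basal and wounded epithelium, had 4.13, 0.718, 2.36 and 0.981 CPM in VC against 26.8, 2.20, 11.04 and 17.2 CPM in miR-21-KD tumours. Only miR-21-KD 2 overlapped with the controls. The log2 fold change of Krt17 was 2.79 (SE 0.77, edgeR adjusted p = 0.0230), and the call was lost without VC 2, VC 3, miR-21-KD 1 or miR-21-KD 4 (adjusted p between 0.0564 and 0.0587 from edgeR) and with limma-voom (adjusted p = 0.0714). Krt15, a type I keratin of basal and stem-like cells, behaved otherwise, with 8.92, 9.97, 9.22 and 2.62 CPM in VC against 12.6, 2.59, 7.87 and 13.6 CPM in miR-21-KD tumours. These values overlapped throughout, and the log2 fold change was 0.25 (SE 0.54, edgeR adjusted p = 0.727). Per kilobase of exon, Krt15 (4.52 CPM) was close to Krt5 (5.29 CPM) and Krt14 (4.18 CPM) in the means of the VC tumours, whereas in those of the miR-21-KD tumours Krt15 was at 5.40 CPM, Krt5 at 39.7 CPM and Krt14 at 35.5 CPM.

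The squamous keratins were a mixture of rises, falls and genes with few reads. Krt6a and Krt78 rose, Krt10 fell, and Krt13, Krt16 and Krt80 did not pass. Krt6a, a type II keratin induced in stressed and wounded epidermis, had 0.885, 0.0798, 0.394 and 0 CPM in VC against 21.5, 1.26, 16.2 and 9.94 CPM in miR-21-KD tumours. All knockdown tumours were above all controls, with miR-21-KD 2 again the lowest. The log2 fold change was 5.09 (SE 1.02, edgeR adjusted p = 0.00931), with the limit of the filter given above. Since 49.5% of the 50-base windows of Krt6a occur in other genes, mostly Krt6b, the split of reads between the pair is uncertain. Summed, Krt6a and Krt6b had 21, 1, 5 and 0 counts in VC against 278, 17, 215 and 134 counts in miR-21-KD tumours, so that for the sum miR-21-KD 2 lay below VC 1 and the groups overlapped.

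Krt78, a type II keratin of stratified epithelia, had 1 count over all VC tumours, in VC 3, and 24, 13, 126 and 78 counts in miR-21-KD tumours. Those counts correspond to 1.94, 1.02, 10.2 and 6.11 CPM, each above the limit that a count of 0 allows. The ratio of the summed counts, scaled to the libraries, was 245 with an exact 95% interval of 43.6 to 9715, which covers counting error only, and the adjusted p was 0.00593 from edgeR, with the same limit as for Krt6a. The fitted log2 fold change of 7.36 (SE 1.16) depends on the prior count.

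Krt10, the type I keratin of maturing epidermal cells, had 15.8, 3.27, 2.52 and 3.76 CPM in VC against 1.54, 1.73, 1.22 and 2.11 CPM in miR-21-KD tumours. It was the keratin whose knockdown tumours all lay below the controls, but VC 1 stood far above the other controls. Krt10 fell by 1.94 on the log2 scale (SE 0.61, edgeR adjusted p = 0.0351). Without VC 1 it fell by 0.91 (adjusted p = 0.0351 from edgeR), and without any one of the knockdown tumours the call was lost (adjusted p between 0.0549 and 0.0855 from edgeR), as it was with limma-voom (adjusted p = 0.0809, and 0.0851 with quality weights). Its type II partner Krt1 was not tested, with 161 counts in VC 1 and at most 3 in any other tumour. Markers of cornifying epidermis were few. Of the 8 epidermis genes (among them loricrin and filaggrin) none passed the filter, Flg2 and Klk5 had 0 counts in all tumours, and the summed level was 1.70 CPM in VC 1, between 0.0788 and 0.0817 CPM in the other VC tumours and between 0 and 0.404 CPM in miR-21-KD tumours. The part of epidermal cells in the Krt1 and Krt10 counts of VC 1 was not tested.

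Krt13, the type I keratin of mucosal stratified epithelia, had 5.75, 7.18, 4.10 and 1.55 CPM in VC against 0.242, 1.81, 2.35 and 1.10 CPM in miR-21-KD tumours. Only VC 4 reached into the range of the knockdown tumours. The log2 fold change was -1.75 (SE 0.62, edgeR adjusted p = 0.0524), and Krt13 passed without VC 4 (adjusted p = 0.0250 from edgeR), with library size scaling (adjusted p = 0.0491 from edgeR), with DESeq2 (adjusted p = 0.0185) and with limma-voom quality weights (adjusted p = 0.0345). Its partner Krt4 had 10 counts over the VC and 24 over the miR-21-KD tumours and was not tested. Krt16, the type I partner of Krt6a, had 1.84, 0.558, 2.44 and 0.327 CPM in VC against 1.37, 3.14, 1.79 and 1.17 CPM in miR-21-KD tumours. Unlike for Krt6a, the groups overlapped, and the log2 fold change was 0.52 (SE 0.60, edgeR adjusted p = 0.507). Of its 50-base windows, 37.6% are shared with other genes. Krt80, a type II keratin of many epithelia, was between 5.67 and 10.3 CPM in VC against between 8.69 and 11.1 CPM in miR-21-KD tumours, with a log2 fold change of 0.28 (SE 0.20, edgeR adjusted p = 0.302).

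The 37 keratins that were not tested had few reads. The 10 squamous ones held 215 counts over the VC and 137 over the miR-21-KD tumours, and Krt1 in VC 1 alone gave 161 of the former. The 23 hair and inner root sheath keratins, 10 of them at 0 in all tumours, held 24 and 63 counts, and no single one exceeded 8 counts in a tumour. The 4 unclassed ones (Krt42, Krt88, Krt90 and Krt222) held 26 and 26 counts. Fitted without a filter on low counts, 1 of these genes passed, the hair keratin Krt83 (6 counts in VC against 22 in miR-21-KD tumours, adjusted p = 0.0464 from edgeR). In that fit 12.7% of all 20730 genes were higher and 12.8% lower, and the 12 keratins with 0 counts could not be fitted. Krt83 is therefore named as a description only. It shares 23.2% of its 50-base windows with other hair keratins.

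The make-up of the keratin transcripts differed between the groups. Summed over all 53 genes, keratins reached 2037, 2220.4, 2228 and 1298 CPM in VC against 933, 1575, 1865 and 1463 CPM in miR-21-KD tumours, and these ranges overlapped. Krt8 and Krt18 together held 90.3% to 96.1% of a VC tumour's keratin reads. In miR-21-KD tumours they held 38.7%, 84.6%, 60.9% and 52.4%, all below the controls. Krt7, Krt19, Krt20 and Krt23 together held 2.16% to 4.62% in VC against 25.9%, 11.8%, 28.2% and 31.2% in miR-21-KD tumours, nearly all of it Krt19 and Krt7. The basal keratins held 0.740% to 2.69% in VC against 30.6%, 2.31%, 8.35% and 14.1% in miR-21-KD tumours, so that miR-21-KD 1 had the largest basal share and miR-21-KD 2 overlapped with the controls. The share of the 2 types overlapped between the groups. Type I keratins held 54.2% to 56.2% of the keratin reads in VC against 52.7% to 59.2% in miR-21-KD tumours.

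**Figure D3:**
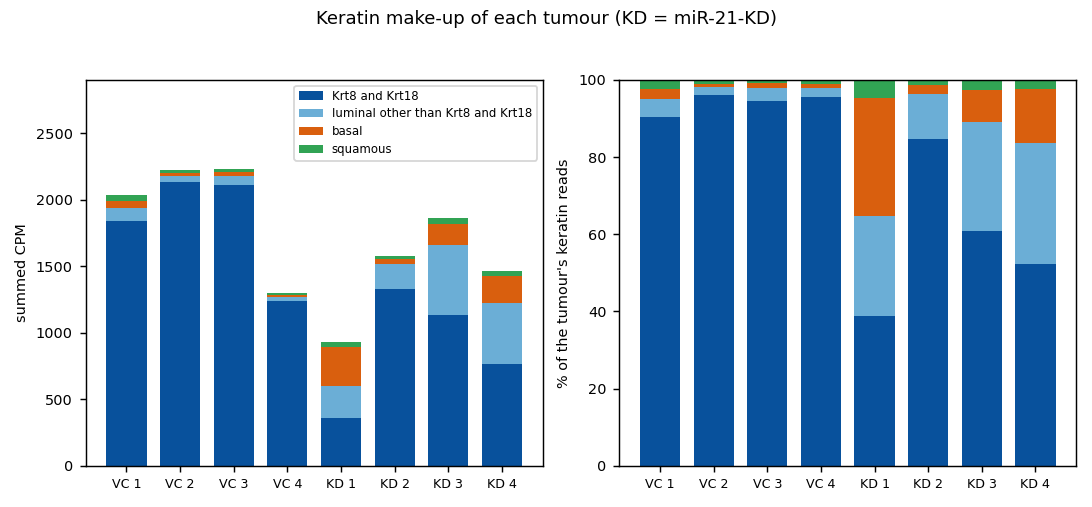
Keratin transcripts of each tumour, as summed CPM (left) and as a percentage of the tumour's keratin reads (right), stacked by group of genes. Krt8 and Krt18 take at least 90.3% in every VC tumour and 38.7% to 84.6% in the miR-21-KD (KD) tumours, where the basal and other luminal keratins fill the difference.

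Whether the partners of a pair moved together was examined from the ratio of their read counts in each tumour, which does not depend on library scaling. Of 7 textbook pairs, the 6 named above and Krt6b with Krt17, 3 had both partners tested and counted in every tumour. The ratio of Krt18 to Krt8 was 1.28, 1.32, 1.24 and 1.20 in VC against 1.09, 1.07, 0.982 and 1.09 in miR-21-KD tumours. The knockdown tumours were all lower, but within a narrow range, and the log2 ratio differed by -0.25 (exact permutation p = 0.0286, two-sided, the smallest that 4 against 4 allows, adjusted over the 3 pairs 0.0429). The ratio of Krt19 to Krt7 was 1.06, 0.264, 0.431 and 0.592 in VC against 3.48, 1.30, 3.44 and 3.75 in miR-21-KD tumours. All knockdown tumours were higher, by 2.42 on the log2 scale (exact permutation p = 0.0286, adjusted 0.0429). The ratio of Krt14 to Krt5 was 0.565, 0.565, 0.768 and 0.541 in VC against 0.617, 2.49, 0.690 and 0.646 in miR-21-KD tumours. In that pair miR-21-KD 2 stood apart, with more Krt14 than Krt5 reads, and the difference of 0.59 on the log2 scale did not pass (exact permutation p = 0.257). These tests take the tumours as unpaired. Permuted within the 4 pairs of same-numbered tumours, an alternative chosen after the data were seen, the smallest exact p is 0.125, so that no ratio could pass, and both the Krt18 to Krt8 and the Krt19 to Krt7 ratio were at that value, with all 4 pairs in one direction. Across pairs, 30.4 to 251 Krt8 reads were counted per Krt5 read in VC against 1.13, 71.2, 7.08 and 3.43 in miR-21-KD tumours.

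**Figure D4:**
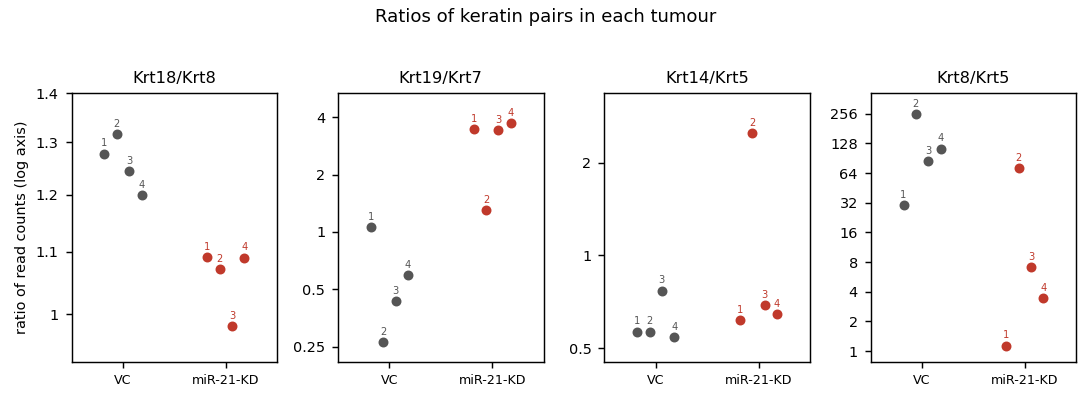
Ratio of read counts of keratin pairs in each tumour, on log axes with their own range. Numbers are the tumours of each group. Krt18/Krt8 lies between 1.20 and 1.32 in VC and between 0.982 and 1.09 in miR-21-KD tumours, and tumour 2 of the knockdown group is apart from the other 3 for Krt19/Krt7, Krt14/Krt5 and Krt8/Krt5.

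The knockdown tumours also differed among themselves, in orders that were noticed after the values were seen. From highest to lowest, Krt5, Krt14 and Krt17 ran miR-21-KD 1, 4, 3 and 2, whereas Krt8 ran in the reverse order, 2, 3, 4 and 1, as did Krt18. Krt19 and Krt78 followed another order, 3, 4, 1 and 2. With 4 tumours these orders are descriptions only. Among the controls, VC 1 was the highest for Krt5, Krt14, Krt17, Krt19 and Krt6a, and without it their log2 fold changes were 3.75, 3.79, 3.42, 4.31 and 6.20. Without VC 1 the log2 fold changes of Pkp1, Dsg2, Sprr1a, Sprr2a3, Sprr2f, Ovol1, Epcam and Msx2, genes of other lists, were 4.48, 2.24, 5.24, 7.01, 5.76, 2.85, 2.52 and 5.43. Those of the hormone-sensing luminal markers Pgr, Prlr and Foxa1 were 4.39, 5.02 and 4.14, against 3.79, 4.23 and 3.47 with all tumours. Without miR-21-KD 3 the log2 fold changes of Krt78, Sprr1a and Sprr2a3 were 6.69, 3.78 and 5.30. Without VC 3, the control with the single Krt78 read, that of Krt78 was 8.93. Trp63, the transcription factor that maintains basal epithelium, had 13.3, 1.57, 9.50 and 11.1 CPM in miR-21-KD tumours 1 to 4, the order of Krt5. In VC it had 6.42, 1.28, 1.89 and 1.06 CPM, and it did not pass the test (log2 fold change 1.73, SE 0.73, edgeR adjusted p = 0.0878), although it passed without VC 1 (log2 fold change 2.68, edgeR adjusted p = 0.0233) and without miR-21-KD 2 (2.07, edgeR adjusted p = 0.0229). Vim, the intermediate filament of mesenchymal cells, had 2251, 4640.1, 3731 and 2973 CPM, the order of Krt8, and fell by 0.79 on the log2 scale (SE 0.23, edgeR adjusted p = 0.0248) from 5888 ± 741 to 3399 ± 1025 CPM (SD, n = 4 each).

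Along chromosome 11, the genes from Krt13 to Krt17 lie within one stretch and had unlike fold changes. Krt13 was at -1.75 on the log2 scale and the next keratin of the table, Krt15, which lies 10192 bases on, at 0.25. Krt19, 4860 bases beyond Krt15, was at 3.60. Further along, Krt14, Krt16 and Krt17 were at 3.08, 0.52 and 2.79. On chromosome 15, Krt6a (5.09) lies 12763 bases from Krt5 (2.90), and Krt8 (-0.88) lies 23873 bases from Krt18 (-1.15).

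Genes whose proteins anchor keratins or mark epithelial maturation were examined from lists, each set beside the median of -0.01 and the shares of higher and lower calls over all tested genes given above. Desmosomes are the junctions at which desmoplakin ties keratin filaments to the membrane. Of 12 desmosome genes, 9 were tested, 5 were higher and 0 lower, with a median log2 fold change of 0.90. The linker desmoplakin (Dsp) had 18.0, 9.73, 14.7 and 3.76 CPM in VC against 53.5, 14.9, 43.9 and 45.9 CPM in miR-21-KD tumours, a log2 fold change of 1.77 (SE 0.50, edgeR adjusted p = 0.0255). As for Krt5, miR-21-KD 2 alone lay within the range of the controls. The plakophilin Pkp1 (3.32, SE 0.91), which reached 10 counts in 2 of the VC tumours, plakoglobin (Jup, 0.80, SE 0.19) and the desmosomal cadherin Dsg2 (1.59) rose as well on the log2 scale. The count of higher genes was between 1 and 3 without VC 2, VC 3, VC 4, miR-21-KD 1, miR-21-KD 3 or miR-21-KD 4. The count was 3 where every tumour needed 10 counts. With the replicate block, 1 desmosome gene was lower, and 2 were without VC 4 or without miR-21-KD 2.

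Hemidesmosomes tie the keratins of basal cells to the basement membrane, and plakins are the linkers. Here 9 genes were tested, 2 higher and 2 lower (5 lower with the replicate block, 4 without VC 4 and 5 without miR-21-KD 2), with a median log2 fold change of -0.58. The integrin chain Itgb4 had 216, 361, 321 and 205 CPM in VC against 43.8, 141, 116 and 66.9 CPM in miR-21-KD tumours, with no overlap, and fell by 1.59 on the log2 scale (SE 0.36, edgeR adjusted p = 0.0133). Periplakin (Ppl) fell by 2.03 (SE 0.25, edgeR adjusted p = 0.00501), from 78.3 ± 22.1 to 19.2 ± 4.64 CPM (SD, n = 4 each). The hemidesmosomal collagen Col17a1, by contrast, rose by 2.22 (SE 0.57, edgeR adjusted p = 0.0180), and epiplakin (Eppk1), which reached 10 counts in 0 of the VC tumours, by 1.67 (SE 0.39).

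The cornified envelope is the protein shell laid down inside maturing squamous cells. Of its 21 listed genes, 6 were tested, 4 were higher and 0 lower, with a median log2 fold change of 2.84. Sprr1a, Sprr2a3 and Sprr2f passed the filter on low counts through the miR-21-KD tumours, with 10 counts reached in 2, 2 and 0 of the VC tumours, and where every tumour needed 10 counts 1 gene of the list was higher. The small proline-rich gene Sprr2a3 had 4.79, 1.75, 0.630 and 0.327 CPM in VC against 54.8, 27.9, 236 and 144 CPM in miR-21-KD tumours, without overlap and in the order of Krt78, with a log2 fold change of 5.91 (SE 0.91, edgeR adjusted p = 0.00571). Reads may be shared among the Sprr2a copies. Sprr1a (4.39), Sprr2f (4.53) and the crosslinking enzyme Tgm1 (1.28) rose as well on the log2 scale, while Ivl, Rptn and Krtdap were among the listed genes that did not reach the filter.

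Of 16 epithelial transcription factors, 15 were tested, 6 were higher and 0 lower, with a median log2 fold change of 1.21 (2 were lower with the replicate block and without miR-21-KD 2, 3 were higher without VC 3 and 10 without miR-21-KD 2). Cebpa rose by 1.51 (SE 0.26, edgeR adjusted p = 0.00694), Ovol1, which reached 10 counts in 1 of the VC tumours, by 2.18 and Grhl1 by 2.23 on the log2 scale. In miR-21-KD tumours 1 to 4 Cebpa had 79.8, 44.3, 67.6 and 104 CPM. That is the order of the adipocyte marker Adipoq (73.3, 34.6, 65.3 and 141 CPM), and which cells express Cebpa was not tested. Of the other intermediate filament genes, 9 were tested, 2 were higher and 2 lower, with a median of -0.49. Nestin (Nes) fell by 1.04 (SE 0.14, edgeR adjusted p = 0.00501) and the lamin Lmnb1 by 0.50, while desmin (Des) rose by 1.32 and Bfsp1 by 1.42. The higher count was 1 with the replicate block and without every tumour except VC 1 and miR-21-KD 2, and the lower count was 1 without VC 2, VC 3 or miR-21-KD 4 and 4 without miR-21-KD 2.

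Markers of several other cell types were higher in miR-21-KD tumours, as were the keratins that rose, whereas Krt18 and Krt10 were lower. Their counts stand beside the 19.6% of all tested genes that were higher and the 19.5% that were lower. All 8 general epithelial markers rose, with a median log2 fold change of 2.03. Epcam had 49.9, 13.5, 25.3 and 13.6 CPM in VC against 102, 40.6, 124 and 124 CPM in miR-21-KD tumours, and its summed list reached 40.3 to 164 CPM in VC against 158 to 395 CPM in miR-21-KD tumours. The count was 3 without VC 2 or VC 3, 5 without miR-21-KD 1 and 4 without miR-21-KD 3 or miR-21-KD 4. Markers of myoepithelium rose for 5 of 6 genes (summed 179 to 279 against 313 to 457 CPM), those of hormone-sensing luminal cells for 4 of 5 (32.9 to 109 against 124 to 319 CPM), of adipocytes for 5 of 5 (85.2 to 319.8 against 428 to 1124 CPM) and of fibroblasts for 4 of 6 (2535 to 6735 against 8529.9 to 19303 CPM, with 1 higher without VC 3 and 1 lower without miR-21-KD 1). Several of the myoepithelial genes, such as Acta2 and Myh11, are also expressed by fibroblasts and vessel walls. Of the hair follicle genes, 2 of 6 were tested, with Msx2 higher by 3.95 (10 counts reached in 1 VC tumour, and not tested where every tumour needed 10 counts) and Padi3 at -1.28 on the log2 scale, the latter no longer past the threshold without any one VC tumour, miR-21-KD 3 or miR-21-KD 4. Tchh, which encodes trichohyalin, a protein that binds keratin filaments in the inner root sheath, was between 0.0798 and 0.516 CPM in VC and between 0.236 and 1.37 CPM in miR-21-KD tumours. The part of host mammary epithelium, skin or stroma in the keratin differences was not tested.

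**Figure D5:**
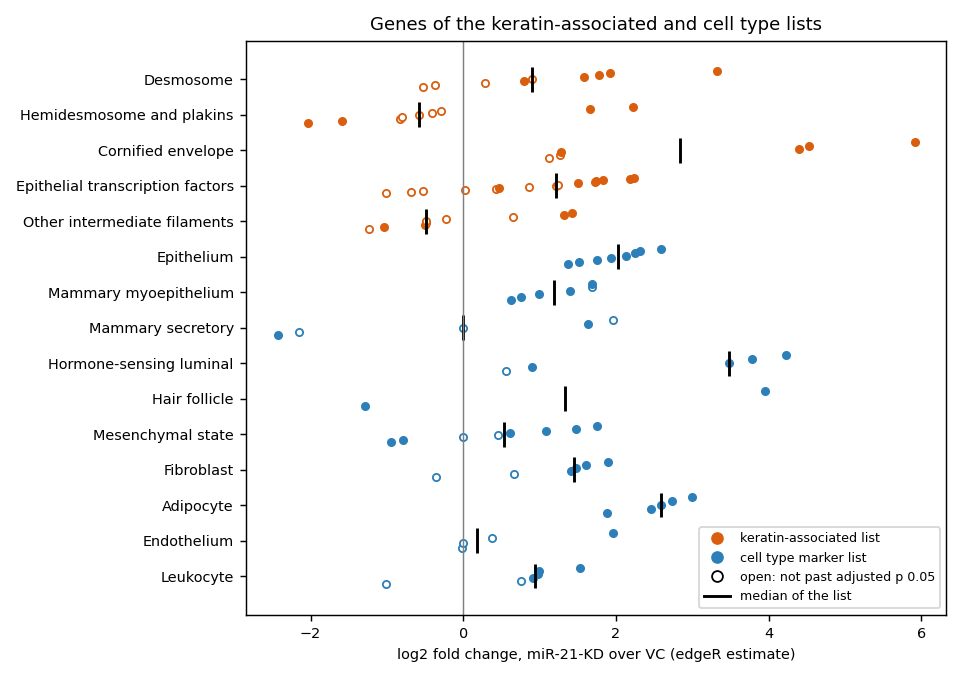
Log2 fold changes (edgeR, miR-21-KD over VC, x axis) of the tested genes of the keratin-associated lists (orange) and cell type marker lists (blue), 1 row per list. Filled points passed an adjusted p of 0.05 and vertical lines are list medians, which run from -0.58 (hemidesmosome and plakins) to 3.47 (hormone-sensing luminal).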

How the data were processed

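RNA from whole tumours was sequenced, and the authors deposited raw read counts per Entrez gene identifier, with 1 column for each of the 8 tumours and no normalization. The submitters' processing notes name Subread, featureCounts, edgeR, limma and the mm10 build. Their settings, including strand and the handling of reads that match several places, are not given in the sources used here. All columns were used and each was matched to a group by its label.

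Counts were tested in R 4.3.3 with the robust quasi-likelihood test of edgeR 4.0.16, with TMM scaling and filterByExpr by group (minimum count 10, minimum total 15), which kept 14382 genes and 99.85% of all counts. P-values were adjusted over these genes by the Benjamini-Hochberg method, with a threshold of 0.05. CPM values use the library size times the TMM factor. The scripts were tested on simulated data. Ratios of 2 genes were compared by exact two-sided permutation tests. Every tested keratin was named. The genes named from a list were taken from the up to 4 tested members with the smallest adjusted p in each direction, not all of which are named, and from partners or regulators of keratins by their known role, and markers at 0 or under the filter were named as such. The keratins, classes, lists and tests were chosen with earlier results of these data known, and the lists were written from general knowledge.

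The alternatives were DESeq2 1.42.0, scaling by library size or upper quartile, no filter on low counts, a filter that asks every tumour for at least 10 counts, limma-voom (limma 3.58.1) with and without sample quality weights, a replicate block, and each tumour left out in turn. Same-numbered tumours of the groups deviated together from their group means, with correlations of 0.272, 0.421, 0.175 and 0.376. The mean over the 12 other combinations was -0.105. Deviations from a group mean sum to 0, which pushes the other combinations below 0 when same-numbered tumours correlate. This check therefore cannot establish that the label numbers pair the tumours, and the labels name no pairing. No pair of tumours of a group agreed within sampling noise (chi-square per degree of freedom 12.6 to 70.7). Motifs, promoter windows and miRNA sequences came from RefSeq (GRCm38.p6) and 3' UTRs from GENCODE M21.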

Additional observations from a re-analysis of the deposited data

Results flagged for a closer look

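Of 58 groups of 4 values examined (each tested keratin, each ratio of 2 keratins and the summed levels, in each group), 8 had a highest or lowest tumour far from the others by Dixon's test, and chance flags about 1 in 20 groups. In the VC group, Krt10 was at 15.8 CPM in VC 1 against 2.52 to 3.76 CPM in the others, Krt15 at 2.62 CPM in VC 4 against 8.92 to 9.97 CPM, and Krt78 at 0.0788 CPM in VC 3 against 0, which is a single read that stands apart by construction. The ratio of Krt14 to Krt5 was 0.768 in VC 3 against 0.541 to 0.565. In the miR-21-KD group, tumour 2 had a Krt19 to Krt7 ratio of 1.30 against 3.44 to 3.75 and a Krt14 to Krt5 ratio of 2.49 against 0.617 to 0.690. In the same tumour the ratio of Krt8 to Krt5 was 71.2 against 1.13 to 7.08 and that of Krt18 to Krt19 was 6.61 against 1.03 to 1.39. These ratios share genes and are not independent.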

How the results depend on the processing

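Krt19 and Krt14 kept their direction and call under all 16 alternatives. Krt6a and Krt78 did so under 15, but the other, at least 10 counts in every tumour, could not test them, and they passed the filter through the miR-21-KD tumours. Of 16 alternatives, the call held in 14 for Krt7, 10 for Krt18, 10 for Krt10 and 8 for Krt5, and in 10 of 15 for Krt17. Across scalings the median of all genes moved by less than 0.1 on the log2 scale. The 7 higher keratins became 4 with at least 10 counts in every tumour, which removes Krt17, Krt6a and Krt78, and were between 4 and 7 with a tumour left out. The 2 lower keratins became 1 without a filter, 1 with limma-voom and 4 with DESeq2, and between 0 and 3 with a tumour left out. Keratin-associated genes had 19 higher calls, 10 under that filter and between 12 and 24 with a tumour left out, and 4 lower calls, 7 with limma-voom, 14 with its quality weights, 9 with DESeq2, 10 with the replicate block and between 3 and 13 with a tumour left out. Calls over all tested genes moved too: lower calls were 19.5%, and 28.8% with quality weights, 21.6% with DESeq2 and 22.1% with the block, and higher calls ran from 10.2% to 22.5% with a tumour left out. The replicate block changed no keratin call other than that of Krt8. Signs turned for keratins that did not pass: Krt20 was at 0.0037 when every tumour needed 10 counts and 0.0847 with quality weights, and with a tumour left out Krt20 ran from -0.18 to 0.33, Krt23 from -0.0364 to 0.85 and Krt15 from -0.0308 to 0.56. The causes were not tested. Permuted within pairs, the log2 ratios of Krt18 to Krt8 (-0.25) and of Krt19 to Krt7 (2.42) could not pass (adjusted exact p = 0.188 for both). Depth limits the 37 keratins under the filter, of which Krt83 alone passed when fitted without it, where 12.7% of all fitted genes were higher.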

Other observations

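Other cell type lists had mixed counts, set beside 19.6% higher and 19.5% lower of all tested genes. Of 6 milk and secretory genes, 5 were tested. The casein Csn1s1 fell by 2.42 on the log2 scale (adjusted p = 0.0272 from edgeR), and by 1.51 without VC 4. The casein Csn3 rose by 1.64 (adjusted p = 0.0489 from edgeR), and Csn2 was at -0.01, and at 0.70 without VC 4. The count of higher genes was 2 with the replicate block and without VC 4 and 0 without VC 1, VC 2, VC 3, miR-21-KD 1, miR-21-KD 3 or miR-21-KD 4, and that of lower genes was 0 with the block and without miR-21-KD 1 or miR-21-KD 4. The summed level was between 36.0 and 245 CPM in VC and between 71.3 and 288 CPM in miR-21-KD tumours. Of 8 mesenchymal genes, 4 were higher, among them fibronectin (Fn1, 1.75), and 2 were lower, Vim and Twist1 (-0.94), all on the log2 scale. Their higher count was 2 without VC 2, VC 3, miR-21-KD 1 or miR-21-KD 3, and their lower count was 1 without VC 1, VC 2, VC 3 or miR-21-KD 4. Of 6 leukocyte genes, 4 were higher (2 without VC 3), with summed levels of 657 to 1059 CPM in VC and 1166 to 1985 CPM in miR-21-KD tumours, and Cd3e, a subunit of the T cell receptor complex, was at 1.53. Of 4 endothelial genes, 1 was higher, Vwf (1.96), and 2 without VC 1. None of the 4 skeletal muscle genes reached the filter.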
